A study of Mus musculus with 6 samples.

Results

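The RNA levels of 38 genes for splicing factors and their regulators were compared between mouse leukaemic blasts that carry an inducible Stat3β transgene (Stat3β TG) and wild-type (WT) blasts. The genes were chosen by name from the 24454 NCBI gene IDs of the expression table, and all 38 were found. They comprise 12 SR proteins, 10 hnRNPs, 7 core splicing factors, 7 other regulators and 2 CLK kinases. Stat3β is the splice form of STAT3 with a truncated transactivation domain, and the study examined it as a tumour suppressor in MLL-AF9 acute myeloid leukaemia. The values are per gene, so they do not show which isoform of a splicing factor, or of Stat3, was made.

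Both groups came from fetal liver cells on the C57BL/6 background that had been transformed with an MLL-AF9 retrovirus. The Stat3β TG cells carried Mx1-Cre and the Stat3β transgene, and the WT cells came from wild-type littermates. The cells were grown in NSG mice (NOD.Cg-PrkdcscidIl2rgtm1Wjl/SzJ), hosts with the scid mutation and no Il2rg that lack mature lymphocytes but keep myeloid cells of their own. The recipients received 100 μL of poly(I:C) at 2 mg/mL 4 weeks after transplantation, which switches on the interferon-responsive Mx1 promoter and so Cre and the transgene. Bone marrow was harvested at 6 weeks from mice ill with leukaemia, and sorted MLL-AF9+ blasts, by the Venus reporter in the series' design, gave the total RNA. There were 3 Stat3β TG and 3 WT libraries. Nothing in the labels says that the replicates came from separate donors or transformations, so the spread behind each p may be partly technical.

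Splicing factors decide which parts of a primary transcript are kept. SR proteins bind exons and mostly favour their inclusion, hnRNPs often oppose them, and the core factors recognise splice sites and join exons within the spliceosome. CLK kinases phosphorylate SR proteins and set their activity. Many of these genes also limit their own output by including a poison exon, a cassette exon with an early stop codon that sends the transcript to nonsense-mediated decay. In myeloid neoplasms, SF3B1, SRSF2, U2AF1 and ZRSR2 are the splicing genes known for recurrent mutation in patients.

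The poison exons of 4 SR protein genes are shown because a gene-level value sums transcripts with and without them. In the GENCODE annotation of GRCm38, 13 of the 38 genes had at least 1 cassette exon of this kind, 19 exons in all. Of the 13, 8 were SR protein genes. The search covered only the 38 genes, so no share over all genes can be set beside these counts. Each line gives the exon from its first base to its stop codon, which is in capitals, on the coding strand. The coordinates are chr6:49252965-49253108 (minus strand) for Tra2a, chr16:22259181-22259261 (minus) for Tra2b, chr17:29039454-29039487 (plus) for Srsf3 and chr17:80205054-80205081 (minus) for Srsf7.
Tra2a: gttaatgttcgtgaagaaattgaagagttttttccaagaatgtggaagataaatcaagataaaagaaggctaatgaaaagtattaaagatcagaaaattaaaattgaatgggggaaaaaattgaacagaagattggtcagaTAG
Tra2b: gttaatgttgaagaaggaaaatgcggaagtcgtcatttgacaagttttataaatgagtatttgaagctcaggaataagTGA
Srsf3: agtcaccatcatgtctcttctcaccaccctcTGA
Srsf7: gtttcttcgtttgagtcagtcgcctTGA
The paralogs Tra2a and Tra2b share the first 9 bases of the exon. Their exons read 141 and 78 bases before the stop, against 31 in Srsf3 and 25 in Srsf7. The whole exon is 306 bases long in Tra2a, 456 in Srsf3 and 460 in Srsf7, and is annotated at 276 and 397 bases in Tra2b.

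The libraries held 24733256 to 51934498 recovered reads in Stat3β TG and 21809788 to 26805344 in WT, and the members were covered by 580 to 76112 reads each. The Stat3β TG libraries scored -31.4 to -16.3 on principal component 1 (47.4% of the variance), and WT 1 stood beside them at -38.3, away from WT 2 at 64.4 and WT 3 at 49.7. Xist, the RNA that silences an X chromosome, had at most 71.6 normalized counts in Stat3β TG, 835 in WT 2, and 42699 and 45196 in WT 1 and WT 3, so the libraries were also split by sex-linked genes. Blast and progenitor markers such as Kit, Cd34 and Mpo summed to 160499 to 250178 normalized counts in Stat3β TG and 173310 to 234593 in WT. Markers of neutrophils summed to 355286 to 498281 in Stat3β TG and 92003 to 350602 in WT, with WT 1 the highest WT library. They were higher in Stat3β TG for 10 of 10 genes (median log2 difference 1.01). That median was 1.33 without WT 1 and 0.32 without WT 2 and WT 3. NK cell markers summed to 389 to 658 in Stat3β TG and 132 to 587 in WT, and T cell markers to 138 to 201 in Stat3β TG and 67.5 to 284 in WT. Of the 7 T cell markers in the table Cd3e was listed at 0 in all 6 libraries. Cd3d, Cd3g, Lck and Cd5 had reads in each, with Cd3d and Cd3g at 1.41 normalized counts in WT 3. Cd4 was at 0 in WT 3, and Cd8a had reads only in Stat3β TG 3. The part of these differences in the results below was not tested, and in bulk RNA fewer cells of a type and less RNA per cell cannot be told apart.

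Most splicing factor genes differed by well under 2-fold between Stat3β TG and WT blasts. Of the 38 members 17 were higher and 21 lower in Stat3β TG by any amount, with log2 fold changes between -0.49 for Prpf8 and 0.69 for Tra2a. Their median was -0.02, against 0.01 over the 12642 genes tested. With limma 0 members passed an adjusted p of 0.05, where 0% of all genes tested were called, and edgeR and DESeq2 also called 0 members, where 0% and 0.134% of genes were called. At an unadjusted p under 0.05, limma picked 1 member, Tra2a, where 6.1% of all genes were picked. Tra2a was higher in Stat3β TG, as were 3.56% of all genes at that p, and 0 members were lower, against 2.54%. Both edgeR and DESeq2 picked Tra2a and Sf3a1, where they picked 6.15% and 7.67% of genes. The groups did not overlap for 5 members, where 10.8% of genes tested did not. These were Tra2a, Rbm5 and Clk4, higher in Stat3β TG (5.87% of genes), and Sf3a1 and Luc7l2, lower in Stat3β TG (4.92%). These counts are read as near the background.

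The intervals of the members were narrow compared with most genes. For 35 of 38 members, or 92.1%, the whole 95% interval of the fold change lay within 2-fold in either direction. That held for 59.4% of all genes tested and for 84.4% of the 6958 genes whose mean level was at least that of the lowest member. The exceptions were Tra2a, Prpf8 and Srsf7. The median SD within groups was 0.188 on the log2 scale for the members, 0.30 for all genes and 0.226 for the 6958. Summed over the 38 genes, the level was 1.28%, 1.37% and 1.51% of all normalized counts in Stat3β TG 1 to 3 and 1.47%, 1.34% and 1.42% in WT 1 to 3, with overlapping groups.

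**Figure D1:**
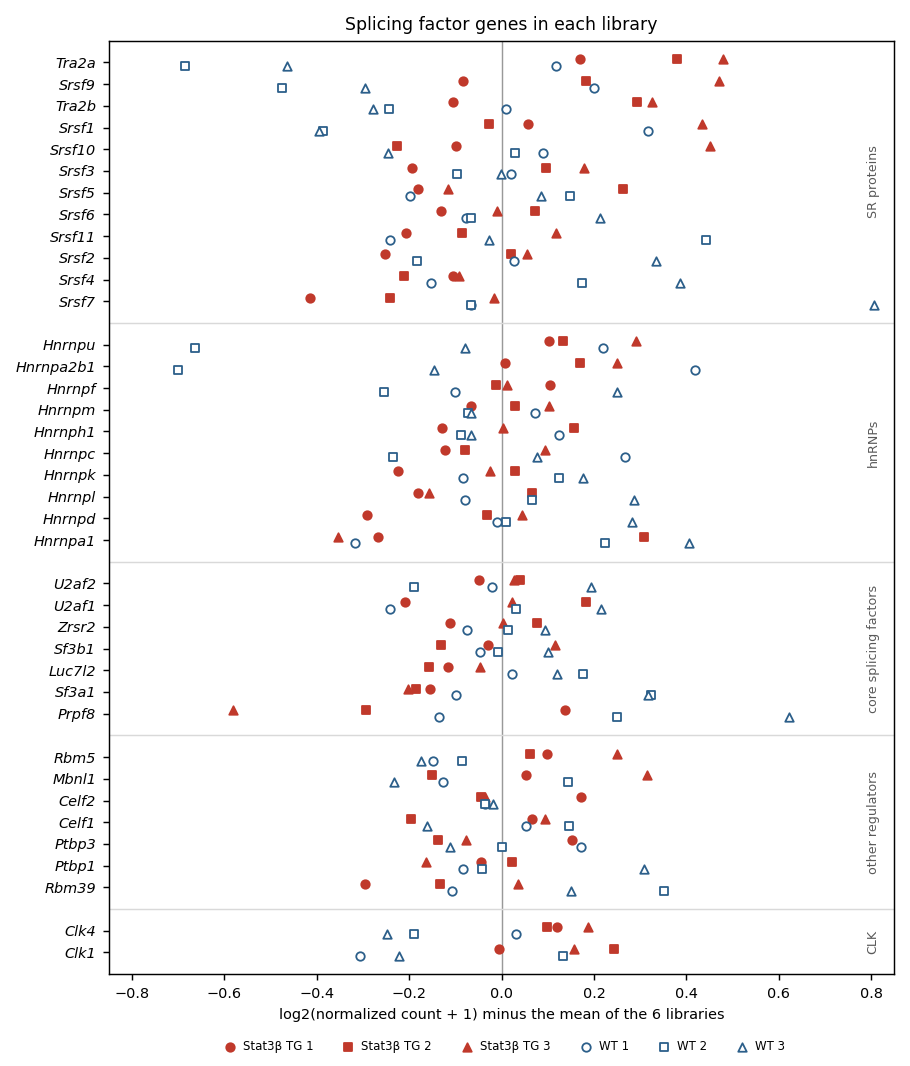
Each row is a splicing factor gene and each point 1 library, placed by its log2(normalized count + 1) minus the gene's mean over the 6 libraries. Filled red points are Stat3β TG and open blue points WT. The groups are interleaved for most genes, and WT 1 (open circle) lies inside the Stat3β TG range for 25 of 38.

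Among the 12 SR proteins, 6 were higher and 6 lower in Stat3β TG, with a median of 0.01 on the log2 scale (-0.01 without WT 1), and 0 were called. The widest difference was that of Tra2a, an SR-like protein that binds GA-rich exonic enhancers (Entrez 101214, chromosome 6, 49243924 to 49264033, minus strand, GRCm38). It had 6401, 7404 and 7926 normalized counts in Stat3β TG 1 to 3 and 6171, 3539 and 4123 in WT 1 to 3. All Stat3β TG libraries were above all WT libraries, but WT 1 was close to Stat3β TG 1. The means were 7244 ± 775 in Stat3β TG and 4611 ± 1382 in WT (SD, n = 3 each). The log2 fold change was 0.69 with a standard error of 0.22 and a 95% interval of 0.18 to 1.19 (limma, unadjusted p = 0.0141, adjusted p = 0.668).

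Its paralog Tra2b, which binds the same kind of enhancer, had 2903, 3826 and 3910.3 normalized counts in Stat3β TG and 3143, 2638 and 2574 in WT. Stat3β TG 2 and 3 were above every WT library, and Stat3β TG 1 lay below WT 1. Its log2 fold change was 0.34 (95% interval -0.05 to 0.73, limma adjusted p = 0.668). Tra2b has 4 annotated pseudogenes with near-identical sequence, which could take or add reads, and Tra2a has none.

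Srsf9, a short SR protein, was placed the same way, with 2505, 3015 and 3679 normalized counts in Stat3β TG and 3052, 1909 and 2164 in WT. WT 1 lay inside the range of Stat3β TG, while WT 2 and WT 3 lay under it. Srsf1, the SR protein long known as SF2/ASF, had 14279.5, 13476 and 18544 in Stat3β TG and 17089, 10505 and 10443 in WT, with the same placing of WT 1. On the log2 scale the difference was 0.38 for Srsf9 and 0.31 for Srsf1, and both intervals included 0.

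Srsf7, a shuttling SR protein that takes part in mRNA export, leaned the other way. It had 8968, 10104 and 11807 normalized counts in Stat3β TG and 11403, 11408 and 20889 in WT. The high WT mean came from WT 3, and the other WT libraries lay inside the range of Stat3β TG. Its log2 fold change was -0.45 (95% interval -1.04 to 0.14, limma adjusted p = 0.668), and -0.16 without WT 3. Srsf4, which had the lowest normalized count of the SR genes, had 961, 894 and 970.3 in Stat3β TG and 931, 1167 and 1352 in WT, a log2 fold change of -0.27.

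The level of Srsf2, the SR gene that is mutated in myeloid neoplasms, overlapped between groups. It had 13456, 16271 and 16645 normalized counts in Stat3β TG and 16328, 14124 and 20218 in WT. On the log2 scale the difference of -0.12 had an interval of -0.54 to 0.30. Of the other SR genes, Srsf3, Srsf5, Srsf6, Srsf10 and Srsf11 had log2 fold changes between -0.12 and 0.08, and their groups overlapped.

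**Figure D2:**
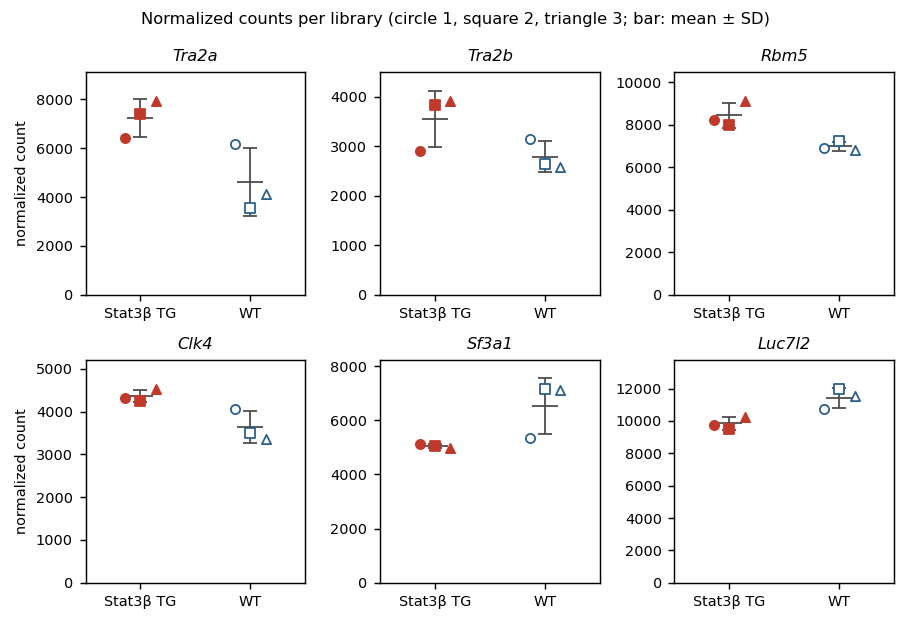
Normalized counts of Tra2a, Tra2b, Rbm5, Clk4, Sf3a1 and Luc7l2, with Stat3β TG left of WT in each panel. Symbols mark the replicate number, and the bars give the mean ± SD of 3 libraries. Tra2b is the only one of the 6 whose groups overlap, and WT 1 (circle) is the WT library nearest to the Stat3β TG group for Tra2a, Clk4, Sf3a1 and Luc7l2.

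Of the 10 hnRNPs, 5 were higher and 5 lower in Stat3β TG, with a median of -0.03 on the log2 scale (0.04 without WT 1), and 0 were called. The groups overlapped for all 10. The 2 with the widest differences had their lowest value in WT 2. Hnrnpu, a nuclear matrix protein also called SAF-A, had 27839.6, 28423 and 31727 normalized counts in Stat3β TG and 30194, 16363 and 24537 in WT. Hnrnpa2b1, which binds exonic and intronic silencers, had 36149.9, 40442 and 42761 in Stat3β TG and 48037, 22106 and 32493 in WT. For Hnrnpa2b1 the WT libraries stood on both sides of the Stat3β TG group. This gave a log2 fold change of 0.35 for Hnrnpu (95% interval -0.19 to 0.89) and 0.29 for Hnrnpa2b1 (-0.35 to 0.92). Without WT 2 these were 0.11 and 0.01, and without WT 1 they were 0.55 and 0.57.

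Hnrnpa1, a classic antagonist of SR proteins, had 902, 1345 and 849 normalized counts in Stat3β TG and 872, 1268 and 1438 in WT. The values split within each group, and the log2 fold change was -0.21 (95% interval -0.80 to 0.39). It has 2 near-identical pseudogenes, so its level is uncertain. Hnrnpd, Hnrnpl, Hnrnpk and Hnrnpc had log2 fold changes between -0.19 and -0.07, and Hnrnph1, Hnrnpm and Hnrnpf between 0.02 and 0.07. Summed SR counts divided by summed hnRNP counts gave 0.612, 0.624 and 0.661 in Stat3β TG and 0.579, 0.726 and 0.708 in WT. WT 1 was under the Stat3β TG range, and WT 2 and WT 3 were over it.

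Of the 7 core splicing factors, 6 were lower in Stat3β TG and 1 was higher by any amount, with a median of -0.03, and 0 were called. That median was -0.12 without WT 1 and 0.03 without WT 2 and WT 3. Sf3a1, a subunit of the U2 snRNP that recognises the branch point (Entrez 67465, chromosome 11, 4160350 to 4182541, plus strand), had tightly grouped Stat3β TG values. They were 5138, 5033 and 4972 normalized counts, against 5343, 7158 and 7120.2 in WT. The groups did not overlap, with WT 1 near the Stat3β TG libraries and WT 2 and WT 3 far above them. The means were 5048 ± 83.9 in Stat3β TG and 6540.4 ± 1037 in WT (SD, n = 3 each). The log2 fold change was -0.36 with a standard error of 0.16 and a 95% interval of -0.72 to 0.00 (limma, unadjusted p = 0.0507, adjusted p = 0.668).

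Luc7l2, a U1 snRNP-associated protein that helps select 5′ splice sites (Entrez 192196, chromosome 6, 38551334 to 38609470, plus strand), had 9772, 9503 and 10246 normalized counts in Stat3β TG and 10762, 11975 and 11512 in WT. The groups did not overlap, and the log2 fold change was -0.21 (95% interval -0.51 to 0.09, limma adjusted p = 0.670), and 2 near-identical genes could share its reads. Prpf8, the protein at the catalytic centre of the spliceosome, had 18811, 13950.2 and 11436 in Stat3β TG and 15583, 20346 and 26342 in WT. Its groups overlapped through Stat3β TG 1 and WT 1, and the log2 fold change was -0.49 (95% interval -1.07 to 0.09, limma adjusted p = 0.668).

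The genes that recognise the 3′ splice site and are mutated in myeloid neoplasms differed little. Sf3b1, which holds the branch point, had 24084, 22447 and 26636 normalized counts in Stat3β TG and 23790.4, 24439 and 26336 in WT. U2af1, which reads the AG of the 3′ splice site, had 665, 873 and 781 in Stat3β TG and 649.7, 785 and 892 in WT, and has 2 near-identical pseudogenes. Both pairs of groups overlapped through most of their range. In log2 units the difference was -0.03 for Sf3b1 (95% interval -0.37 to 0.31), -0.00 for U2af1 (-0.46 to 0.46), 0.01 for U2af2 (-0.33 to 0.35) and -0.02 for Zrsr2 (-0.35 to 0.31), so a 2-fold difference in either direction lay outside each interval.

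Among the 7 other regulators, 3 were higher and 4 lower in Stat3β TG, with a median of -0.02 (0.03 without WT 1), and 0 were called. Rbm5, an RNA-binding regulator of apoptosis-related exons (Entrez 83486, chromosome 9, 107740371 to 107770996, minus strand), had 8209, 7999.5 and 9115 normalized counts in Stat3β TG and 6922, 7222 and 6795 in WT. All Stat3β TG libraries were above all WT libraries, and WT 1 lay among the WT libraries. The means were 8441 ± 593 in Stat3β TG and 6979.7 ± 219 in WT (SD, n = 3 each). The log2 fold change was 0.27 with a standard error of 0.13 (95% interval -0.03 to 0.57, limma, unadjusted p = 0.0695, adjusted p = 0.668).

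Rbm39, a U2AF-like protein and the target of sulfonamide degraders, had 13148, 14716 and 16556 normalized counts in Stat3β TG and 14995, 20600.4 and 17919 in WT. WT 1 lay inside the range of Stat3β TG, and WT 2 and WT 3 lay above it. Its log2 fold change was -0.26 (95% interval -0.66 to 0.14, limma adjusted p = 0.675). Mbnl1, whose sequestration by repeat RNA underlies myotonic dystrophy, had 21235, 18435 and 25456 in Stat3β TG and 18756, 22601 and 17419 in WT. Its groups overlapped, and its log2 fold change was 0.14. Celf1, a CUG-binding protein that opposes Mbnl proteins at many exons, had 5714, 4769.9 and 5827 in Stat3β TG and 5667, 6039 and 4881 in WT. Its log2 fold change was -0.02, against 0.06 for its relative Celf2 and -0.12 and -0.04 for the polypyrimidine tract-binding proteins Ptbp1 and Ptbp3.

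Both CLK kinases had a higher mean in Stat3β TG, and neither was called. Clk4 (Entrez 12750, chromosome 11, 51261730 to 51281766, plus strand) had 4327, 4258 and 4531 normalized counts in Stat3β TG and 4067, 3491 and 3352 in WT. The groups did not overlap, with WT 1 nearest to Stat3β TG. Its log2 fold change was 0.27 with a standard error of 0.14 (95% interval -0.05 to 0.59, limma, unadjusted p = 0.0839, adjusted p = 0.668). Clk1 (Entrez 12747, chromosome 1, 58410189 to 58424066, minus strand) had 8673, 10316 and 9707 in Stat3β TG and 7049, 9558 and 7472 in WT. Its groups overlapped through WT 2, and the log2 fold change was 0.26 (95% interval -0.12 to 0.64, limma adjusted p = 0.673). Both genes have annotated retained-intron transcripts, which for CLK genes include RNAs held in the nucleus, and a gene-level value counts these with the coding mRNA.

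**Figure D3:**
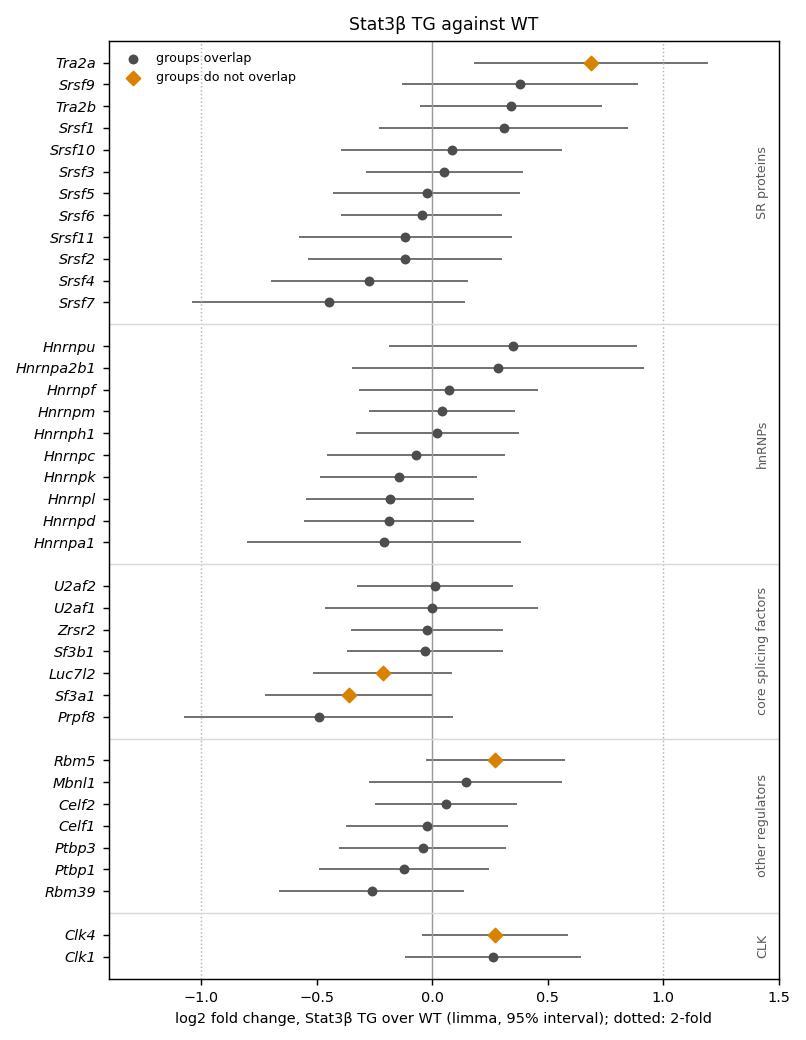
Log2 fold changes (Stat3β TG over WT) for the 38 genes, grouped by role, with the 95% interval from limma. Orange diamonds mark the 5 genes whose groups do not overlap, and dotted lines mark 2-fold. For 35 genes the whole interval lies between the dotted lines, and Tra2a, Prpf8 and Srsf7 reach past them.

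Many of the wider differences came with WT 2 and WT 3, while WT 1 lay nearer to Stat3β TG. WT 2 and WT 3 both lay beyond the Stat3β TG range on the same side for 16 of 38 members, or 42.1%, against 46.1% of all genes tested. WT 1 lay within the Stat3β TG range for 25 members, or 65.8%, against 55.7% of all genes. Without WT 1, limma called 1 member, where 2.74% of all genes were called. That member was Tra2a, with a log2 fold change of 0.92 (limma adjusted p = 0.0464). At an unadjusted p under 0.05, limma without WT 1 picked 10 members, where 27% of genes were picked. Tra2a, Tra2b, Srsf1, Srsf9, Hnrnpu, Hnrnpa2b1 and Clk4 were higher in Stat3β TG, and Sf3a1, Prpf8 and Srsf4 were lower. Both counts are near the background.

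Compared with WT 1 alone, most of these genes differed less. They had been picked in the fit without WT 1, so part of this follows from the choice itself. How often it holds for all genes picked that way was not counted. Without WT 2 and WT 3 the log2 fold change was 0.23 for Tra2a, 0.16 for Tra2b, 0.10 for Clk4, -0.08 for Sf3a1 and -0.11 for Prpf8. For Srsf9, Hnrnpu, Srsf1 and Hnrnpa2b1 it was -0.01, -0.04, -0.16 and -0.28, and for Srsf4 it was 0.02. These had the opposite sign to the fit with all 6 libraries. Of the genes with separate groups Rbm5 moved least between these 2 fits, at 0.27 without WT 1 and 0.28 without WT 2 and WT 3. With any 1 library left out, Rbm5 lay between 0.22 and 0.31 and Luc7l2 between -0.26 and -0.18. Luc7l2 was at -0.26 without WT 1 and -0.13 without WT 2 and WT 3, and Clk1 at 0.17 and 0.44.

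**Figure D4:**
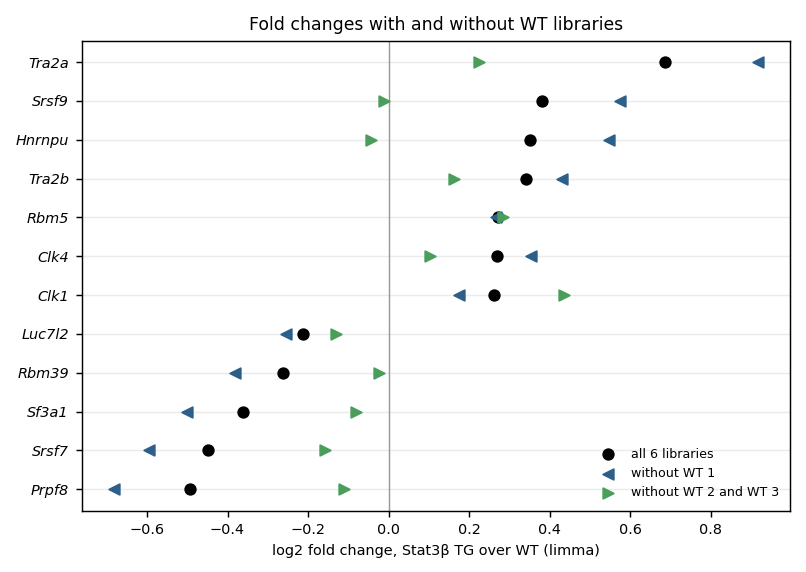
Log2 fold changes (Stat3β TG over WT) for the 12 genes with the smallest unadjusted p, with all 6 libraries (black circles), without WT 1 (blue, pointing left) and without WT 2 and WT 3 (green, pointing right). The 3 values coincide for Rbm5 at 0.27 to 0.28, while Tra2a spans 0.23 to 0.92.

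Genes that work with these factors were compared in the same fit, and 0 of the 122 tested were called. Without WT 1 limma called 5 of them, all lower in Stat3β TG, where 2.74% of all genes tested were called. These were Xab2, Hnrnpdl, Rbm15, Cirbp and Rbm33, with adjusted p values from 0.0489 to just under 0.05. That fit picked 6 higher and 26 lower at an unadjusted p under 0.05. Over all 12642 genes it picked 27%, with 1878 higher and 1535 lower. Of 51 other spliceosome components 9 were higher and 42 lower in Stat3β TG, with a median of -0.12 on the log2 scale, where 6495 of all genes tested were higher and 6147 lower. The median was -0.17 without WT 1 and -0.03 without WT 2 and WT 3. Among those with the smallest p values were the helicases Ddx46 at -0.28 and Dhx15 at -0.35, Xab2 at -0.40 and Rbm25 at -0.28. For Xab2, WT 1 stood with Stat3β TG, at 3935, 3931 and 3841 normalized counts in Stat3β TG and 3597, 6159 and 6113 in WT.

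Of 48 other members of the SR and hnRNP families and further regulators, 44 were tested, and 19 were higher and 25 lower, with a median of -0.06 (-0.03 without WT 2 and WT 3). Hnrnpdl, an hnRNP D-like protein, had 6938, 8518 and 7789 normalized counts in Stat3β TG and 8905, 12918 and 12847 in WT. Its groups did not overlap, and its log2 fold change was -0.56 (limma, unadjusted p = 0.0173, adjusted p = 0.668). The cold-induced Cirbp was at -1.01, Rbm15 at -0.56, Ewsr1 at -0.35 and Tardbp at 0.40. Cirbp had 2134, 4196 and 2452 in Stat3β TG and 2752, 7564 and 8622 in WT.

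Of 11 other kinases and phosphatases of SR proteins 8 were higher and 3 lower, with a median of 0.08, which became -0.0015 without WT 1 and 0.20 without WT 2 and WT 3. Dyrk1b had 361, 374 and 402 normalized counts in Stat3β TG and 248, 275 and 172 in WT. Its groups did not overlap, and its log2 fold change was 0.74 (limma, unadjusted p = 0.0249, adjusted p = 0.668). The SR protein kinases Srpk1 and Srpk2 were at 0.32 and 0.21, Dyrk1a at -0.39, and Clk3 at 0.14 without overlap. Of 16 factors of nonsense-mediated decay and the exon junction complex, the pathway that degrades transcripts with the poison exons printed above, 3 were higher and 13 lower, with a median of -0.12, or -0.16 without WT 1 and -0.01 without WT 2 and WT 3. Pym1 was at -0.56, Smg5 at -0.37, Smg1 at -0.28, Upf3b at -0.25 and Upf1 at -0.23.

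Malat1, a nuclear RNA of the speckles in which SR proteins are stored, stood further apart than any member. It had 15237, 13119 and 8721 normalized counts in Stat3β TG and 25904, 26524 and 42999.9 in WT. The groups did not overlap and WT 1 lay with the other WT libraries. Its log2 fold change was -1.36 with a standard error of 0.27 (limma, unadjusted p = 0.00116, adjusted p = 0.668). The count tests differed, with an adjusted p of 0.00383 from DESeq2 and 0.690 from edgeR. The heat-shock genes Hspa1a and Hspa1b, given because CLK splicing is known to respond to heat stress, were high in WT 1. Hspa1b had 792, 875 and 1023 in Stat3β TG and 10324, 1459 and 2474 in WT. The other heat-shock genes of the list were mixed. Hsph1 had 1448, 975 and 2053 in Stat3β TG and 1486, 578 and 625 in WT, so WT 1 stood above WT 2 and WT 3. Hsp90aa1 had 3726, 3603 and 3387 in Stat3β TG and 4731, 4068 and 4676 in WT, with WT 1 close to WT 3. Dnajb1 had 3137.5, 5054 and 2833 in Stat3β TG and 3683, 4444 and 7417 in WT, and WT 1 lay inside the range of Stat3β TG for Dnajb1, Hspa8 and Hsph1. Clk1 had its lowest value in that library, and the part of stress in the CLK values was not tested.

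The median member had a high level and many annotated transcript forms, neither of which was used to choose the genes, while single members varied widely. Per kilobase of annotated exon, the median member stood at percentile 92.0 of the 12110 tested genes with a length. Hnrnpa2b1 was highest at 5619 normalized counts per kilobase (percentile 98.7), followed by Srsf2 at 5468, and Zrsr2 was lowest at 221 (percentile 48.3). Srsf4, U2af1, Tra2b, Srsf10 and Hnrnpa1 were also near the middle, at percentiles 55.8, 56.2, 59.8, 60.0 and 60.7. Each of these except Zrsr2 shares near-identical sequence with another annotated gene, which could take or add reads, so their levels are uncertain. The length counts every annotated exon of a gene, which can lower the value of genes with many transcript forms. In GENCODE, 28 of 38 members, or 73.7%, had a transcript of the nonsense-mediated decay class, against 29.5% of 11943 tested protein-coding genes. Among SR proteins the count was 11 of 12. A retained-intron transcript was annotated for 32 members, or 84.2%, against 59.8%. The members had a median of 10.5 annotated transcripts, against 5 over the tested protein-coding genes, but Srsf4, Srsf6, Prpf8 and Sf3a1 had 4 each. Hnrnph1, Hnrnpf, Celf1 and Srsf10 had neither a decay-class nor a retained-intron transcript. The part of expression level in these annotation shares was not tested.

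Because STAT proteins bind palindromic elements, promoters were searched for TTCNNNGAA, which reads the same on both strands. RefSeq promoter sequences (GRCm38.p6), from 250 bases before to 50 after the start, were matched for 35 members, and 4 of them, or 11.4%, held the motif. It was found for 8.26% of 10108 tested genes and in 8.30% of 32851 promoters. Each line gives the motif in capitals with 15 bases on each side, on the gene's strand. The stretches lie at chr9:107771169-107771207 (minus strand) for Rbm5, chr6:51470023-51470061 (minus) for Hnrnpa2b1, chr11:50376799-50376837 (plus) for Hnrnph1 and chr3:60472589-60472627 (plus) for Mbnl1.
Rbm5: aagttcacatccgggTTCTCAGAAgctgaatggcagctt
Hnrnpa2b1: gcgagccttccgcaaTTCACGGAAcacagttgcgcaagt
Hnrnph1: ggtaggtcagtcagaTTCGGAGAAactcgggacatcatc
Mbnl1: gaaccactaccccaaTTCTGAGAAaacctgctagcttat
The motif starts 190 bases before the annotated start in Rbm5, 176 in Hnrnph1, 226 in Mbnl1, and 152 or 201 in Hnrnpa2b1, which has 2 annotated starts in range. Of these 4 genes only Rbm5 had groups that did not overlap, where 10.8% of all genes tested did not, and its interval included 0. A match of these letters is a description of the sequence, and binding was not measured here.

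Near-identical transcripts limit how exactly some members can be counted. At least 1 other annotated gene shared at least 300 bases at 95% identity with 14 members, most often Hnrnpf with 8 such genes and Srsf3 and Tra2b with 4 each. For Srsf2 it was the overlapping gene Mettl23, over 460 bases. No such gene was found for Tra2a, Sf3a1, Rbm5, Clk1, Clk4, Prpf8 or Srsf7.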

How the data were processed

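RNA sequencing measured transcript levels in 6 libraries of sorted MLL-AF9+ mouse blasts, 3 Stat3β TG and 3 WT, grouped by sample title. The tools FastQC, STAR and DESeq2 and the build GRCm38 (mm10) are named per the submitters' processing notes. Their versions, the counter, strand handling and annotation release are not stated there, so overlapping antisense reads cannot be separated. The authors deposited normalized counts per NCBI gene ID, a signal that is never negative. Dividing by 1 step per library gave whole numbers within 0.001 for 100% of 146724 values, and these recovered reads were used only for count tests. A count of 0 allows up to 3 reads, or 1.69 to 4.22 normalized counts, counting error only. All pairs of libraries differed beyond counting noise (chi-square per gene 65.9 to 225).

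Genes with at least 10 normalized counts in at least 3 libraries (12642) were fitted as log2(normalized count + 1) with limma 3.58.1 (trend and robust moderation, group only, R 4.3.3), two-sided. P values were adjusted by Benjamini-Hochberg over all genes tested, with a threshold of 0.05. The pseudocount understates fold changes of low genes. Alternatives were edgeR 4.0.16 (quasi-likelihood) and DESeq2 1.42.0 on recovered reads, other scalings, pseudocounts and filters, and libraries left out. The fit was tested on simulated data. Symbols came from the RefSeq table of GRCm38.p6, and positions and transcript classes from GENCODE M21. The 38 members and all lists were chosen with earlier results of these data known. Values per library are given for the 12 members with the smallest p, those without overlap, and the highest and lowest of each role. Up to 5 genes per related list are named. Some results under this rule are not reported here. Library values of Srsf1, Xab2 and Cirbp, and the genes Rbm33, Clk3, the named T cell markers and the heat-shock genes, were added for context.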

Additional observations from a re-analysis of the deposited data

How the results depend on the processing

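Of 684 member values under 18 alternatives, 56 changed sign, and 11 members never did. Scaling, pseudocount and filter moved a member by at most 0.061 on the log2 scale. The median of the members stayed between -0.04 and 0.02. Genes called, 0 in the fit with all 6 libraries, came to 17 with DESeq2, 2 with a term for the Xist and Y-linked split, which compares Stat3β TG with WT 2 alone, and 9 without WT 2 and WT 3, where the lone WT library is assumed to vary like the rest. Leaving out 1 library gave 0 to 346 genes (346 without WT 1, 5 without WT 2) and 0 to 1 members. The cause was not tested.

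Replicate numbers did not pair the samples: deviations of same-numbered libraries correlated at 0.141, 0.0995 and -0.107. With a replicate block limma called 0 genes and 0 members, with 934 genes at an unadjusted p under 0.05 against 771.

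Signs changed for U2af2 with DESeq2 (-0.00488) and edgeR (-0.00438), and Hnrnph1 with quantile scaling (-0.041). With the Xist and Y-linked term they changed for Clk1 (-0.00268), Mbnl1 (-0.071), Srsf2 (0.124), Hnrnpc (0.199) and Srsf6 (0.043). Without WT 2 and WT 3 they changed for Srsf9 (-0.011), Hnrnpu (-0.044), Srsf4 (0.016), Srsf1 (-0.161), Hnrnpa2b1 (-0.275), Hnrnpk (0.010), Hnrnpa1 (0.212), Ptbp1 (0.021), Srsf11 (0.183), Srsf10 (-0.047), Hnrnpm (-0.051), Srsf6 (0.055), Sf3b1 (0.032), Zrsr2 (0.064), Srsf5 (0.186), Hnrnph1 (-0.114) and U2af1 (0.241). With 1 library left out, log2 fold changes of 17 members crossed 0. The ranges were -0.111 to 0.067 for Celf1, -0.011 to 0.098 for Celf2, -0.207 to 0.044 for Hnrnpc, -0.039 to 0.213 for Hnrnpf, -0.053 to 0.090 for Hnrnph1, -0.194 to 0.0014 for Ptbp1, -0.127 to 0.035 for Ptbp3, -0.095 to 0.028 for Sf3b1 and -0.120 to 0.218 for Srsf10. They were -0.266 to 0.076 for Srsf11, -0.240 to 0.019 for Srsf2, -0.024 to 0.162 for Srsf3, -0.161 to 0.060 for Srsf5, -0.096 to 0.049 for Srsf6, -0.124 to 0.105 for U2af1, -0.081 to 0.110 for U2af2 and -0.066 to 0.028 for Zrsr2.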
